A study of Mus musculus with 12 samples.

Results

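The mitochondrial genome of the mouse is written out in full in the expression table of these tumors, and its genes are described here in each of 12 tumors. A gene counted as mitochondrially encoded when its symbol in the table starts with mt-, which gave 37 genes of 55401 in all: 13 protein-coding genes, 2 rRNAs and 22 tRNAs. The tumors grew from 4T1 cells, a mouse mammary carcinoma line, placed orthotopically in Balb/c mice, and the labels name no genetic change of the mice. The 4 groups of 3 tumors received a control IgG (an Fc isotype, called control), interleukin-10 joined to an Fc part (IL-10-Fc), an antibody that blocks the colony stimulating factor 1 receptor (aCSF1R), or BF10, in which such an antibody carries interleukin-10. Dosing began at a tumor volume of 100 mm3. The labels count 6 doses while other descriptions of the series give a lower number, so the number behind these tumors is uncertain. Each library was made from polyadenylated RNA of whole tumor tissue, and the labels do not say whether each tumor came from its own mouse, so the p-values measure the spread between these samples only. Tumors carry the number in their titles, such as control 4.

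Mitochondrial DNA is a small circle that is transcribed from both strands into long RNAs, and the tRNAs between the other genes mark where these RNAs are cut. The mRNAs encode core subunits of the respiratory chain: 7 belong to complex I (NADH dehydrogenase), 1 to complex III, 3 to complex IV (cytochrome c oxidase) and 2 to complex V (ATP synthase), while the other subunits of these complexes come from nuclear genes. The rRNAs and tRNAs serve the ribosomes inside the organelle, which make these proteins alone. In tumors, this RNA reflects how many mitochondria and mitochondrial genomes the cells carry and how actively they are transcribed. In bulk tissue, fewer cells of a type and less RNA per cell cannot be told apart.

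In the annotation (GENCODE, build GRCm38), 12 of the protein-coding genes, both rRNAs and 14 tRNAs lie on the plus strand of chrM, transcribed from the heavy strand, and mt-Nd6 and 8 tRNAs lie on the minus strand. Most neighbours touch or share a few bases. The longest shared stretch joins the ATP synthase genes, where the last 43 nt of mt-Atp8 (chrM:7766-7969, plus strand, 204 nt) are also the first 43 nt of mt-Atp6, so reads from there fit both. The whole of mt-Atp8 is shown because it is the gene that shares most of its length with a neighbour, with the bases inside mt-Atp6 in capitals:

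mt-Atp8: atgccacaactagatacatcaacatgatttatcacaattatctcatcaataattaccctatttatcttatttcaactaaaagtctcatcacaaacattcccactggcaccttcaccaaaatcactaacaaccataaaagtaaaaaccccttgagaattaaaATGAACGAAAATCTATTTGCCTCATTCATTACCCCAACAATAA

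A nuclear stretch of chromosome 1 (chr1:24611535-24616197, GRCm38, minus strand) holds 7 annotated pseudogenes that are nearly the same as mitochondrial genes, with at least 99% identity over at least 90% of their length. For 5 of them the aligned part had 0 mismatches with the mitochondrial gene: Gm28439 with mt-Nd4 over 876 nt, Gm10222 with mt-Nd4l over 294 nt, Gm28437 with mt-Co3 over 783 nt, Gm10925 with mt-Atp6 over 678 nt and Gm28661 with mt-Co2 over 681 nt. Gm28438 differed from mt-Nd3 by T3C and Gm29216 differed from mt-Co1 by A1066T, where the mitochondrial base comes first and positions count from 1 at the 5′ end of the mitochondrial gene. Within the aligned part, a read must cover that base to tell the pair apart. The windows of 60 nt around both differences are printed with the differing base in capitals, because no other base differs in the aligned parts of these pairs:

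mt-Nd3: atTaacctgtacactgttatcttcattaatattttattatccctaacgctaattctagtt

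Gm28438: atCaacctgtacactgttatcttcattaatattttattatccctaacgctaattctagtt

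mt-Co1: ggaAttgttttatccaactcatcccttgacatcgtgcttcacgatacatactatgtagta

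Gm29216: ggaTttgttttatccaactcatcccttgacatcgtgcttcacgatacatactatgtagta

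The copy of mt-Atp6 ends 3 bases before the mitochondrial gene does, and the bases it lacks are in capitals in the last 60 nt of mt-Atp6 (chrM:8548-8607, plus strand) beside the end of Gm10925 (chr1:24613974-24614030, minus strand):

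mt-Atp6: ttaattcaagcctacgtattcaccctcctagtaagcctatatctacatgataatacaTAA

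Gm10925: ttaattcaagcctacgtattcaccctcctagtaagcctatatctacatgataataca

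Levels are given as deposited FPKM (fragments per length of transcript and per depth of library) or as TPM, in which each library was brought to the same total. The steps between low FPKM values gave depths of about 29750000 to 34750000 reads. The FPKM sum over the genes that are not mitochondrially encoded was above 700000 in 5 libraries (736700 to 841738), called higher-sum here, and 588672 to 625914 in the other 7, called lower-sum. The higher-sum libraries were control 4, control 7, IL-10-Fc 7, aCSF1R 8 and BF10 6, so 2 of 3 control tumors and 1 of 3 tumors in each treated group belonged to this set. The set was defined after the data had been seen and is not a group of the study. Several results that move with it are given within the sets too, and others only over all libraries.

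The mitochondrially encoded genes held 3.14% to 9.26% of the FPKM sum of a library. In the control tumors the share was 6.84%, 3.25% and 9.26% (6.45 ± 3.03, SD, n = 3). It was 3.96%, 3.47% and 5.90% in the IL-10-Fc tumors (4.45 ± 1.29, n = 3). In the aCSF1R tumors it was 3.14%, 3.45% and 8.66% (5.09 ± 3.10, n = 3), and in the BF10 tumors 3.69%, 6.77% and 3.27% (4.58 ± 1.91, n = 3). The groups overlapped, and in each of them the tumors with the larger shares were the higher-sum ones. Over the whole series the 5 higher-sum libraries held 5.90% to 9.26% and the 7 lower-sum libraries 3.14% to 3.96%. Within the higher-sum set, the control tumors stood at 6.84% and 9.26%, and the treated tumors at 5.90% (IL-10-Fc), 8.66% (aCSF1R) and 6.77% (BF10). Within the lower-sum set the 1 control tumor, at 3.25%, lay inside the 3.14% to 3.96% of the 6 treated tumors.

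By FPKM, nearly all of this share was mRNA in these libraries from polyadenylated RNA, which need not be the make-up of the tissue. The 13 protein-coding genes took 2.96% to 8.42% of the FPKM sum, the 22 tRNAs 0.138% to 0.748% and the 2 rRNAs 0.0340% to 0.117%. The 7 nuclear copies took a further 2.64% to 6.69%, about as much as the mRNAs themselves, so members and copies together made up 5.78% to 15.0% of a library. Counted as reads and not per length, the mRNAs and rRNAs, without the tRNAs, were 1.69% to 6.72% of all reads, and 2.69% to 9.80% with the copies.

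**Figure D1:**
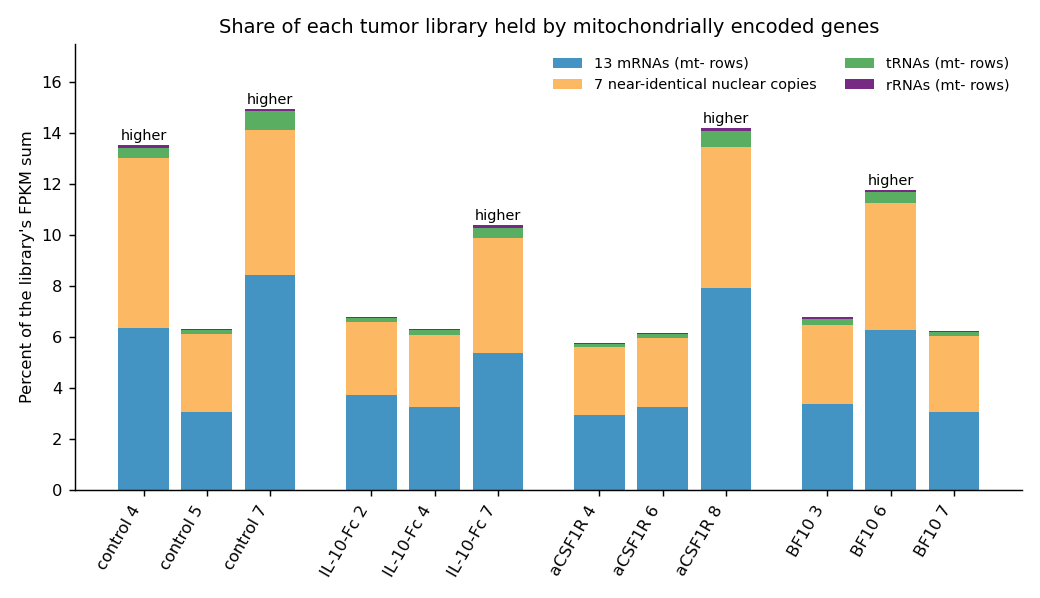
Percent of each library's FPKM sum (y axis) held by the 13 mitochondrial mRNAs, their 7 near-identical nuclear copies, the tRNAs and the rRNAs, 1 stacked bar for each of 12 tumors, with the 5 higher-sum libraries marked. The bars of the higher-sum libraries reach 10.4% to 15.0% and those of the other 7 libraries 5.78% to 6.80%.

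The row with the highest value of the whole table in 12 of 12 libraries was not a mitochondrial gene but Gm10925, the nuclear copy of mt-Atp6, at 6652 to 23498 FPKM. mt-Atp6, which encodes the membrane subunit of the ATP synthase through which protons pass, was listed far lower. Its row alone stood at 730.4, 311 and 2207 FPKM in the control tumors, 474, 319 and 770.0 in the IL-10-Fc tumors, 262, 293 and 2127 in the aCSF1R tumors and 232, 1276 and 199.7 in the BF10 tumors. The copy held 91.0% to 97.4% of the level of the pair. With the copy added, after scaling for the effective lengths of both, the values were 22295, 7526 and 24406 FPKM in the control tumors, 8089.9, 7719 and 15355 in the IL-10-Fc tumors, 6882, 7398 and 25511 in the aCSF1R tumors and 7799.7, 19479 and 7783 in the BF10 tumors. The higher-sum tumors were the high ones in both series of values, and the 4 groups overlapped in both.

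The other copies took unlike parts of their pairs. Gm28438 held 83.7% to 98.6% of the pair with mt-Nd3, a small membrane subunit of complex I, and Gm28437 held 73.7% to 93.5% of the pair with mt-Co3, a core subunit of cytochrome c oxidase. Gm28661 held 39.9% to 86.6% of the pair with mt-Co2, the subunit that accepts electrons from cytochrome c. These pairs therefore changed their split from tumor to tumor. Gm29216 covers only the last part of mt-Co1, the catalytic subunit of cytochrome c oxidase, and held 5.73% to 11.7% of that pair. Gm10222 held 0% to 43.1% of the pair with mt-Nd4l and was highest in control 4, at 1040 FPKM against 0 to 255 FPKM in the other 11 libraries. Gm28439 was listed at 0 to 0.39 FPKM although its 876 nt match mt-Nd4 exactly. How reads that fit both members of a pair were divided is not given in the sources used here. The rows of mt-Atp6, mt-Co2, mt-Co3, mt-Nd3 and mt-Nd4l alone are therefore uncertain as levels of these genes. The last 43 nt of mt-Atp8 lie inside mt-Atp6 and so match Gm10925 too, which leaves reads from that part of mt-Atp8 uncertain as well. Reads from the nuclear stretch itself cannot be told apart from mitochondrial reads where the sequences are identical. Less alike nuclear pseudogenes of mitochondrial genes, with fewer matching bases, were listed at no more than 1.21 FPKM.

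mt-Nd3 had the widest range of the mRNA rows alone. Alone it was listed at 309, 65.3 and 483 FPKM in the control tumors, 89.9, 65.9 and 177 in the IL-10-Fc tumors, 38.8, 10.1 and 445 in the aCSF1R tumors and 52.3, 240.0 and 38.0 in the BF10 tumors, a 47.7-fold range. With its copy it ran from 739 FPKM in aCSF1R 4 to 3376 FPKM in control 7, a 4.57-fold range. Across the 13 mRNAs, the ratio of the highest to the lowest tumor was 3.57 to 47.7 for the rows alone and 3.37 to 4.57 once the copies were added. So the mRNAs differed in range between tumors mainly among the rows that have a near-identical nuclear copy.

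**Figure D2:**
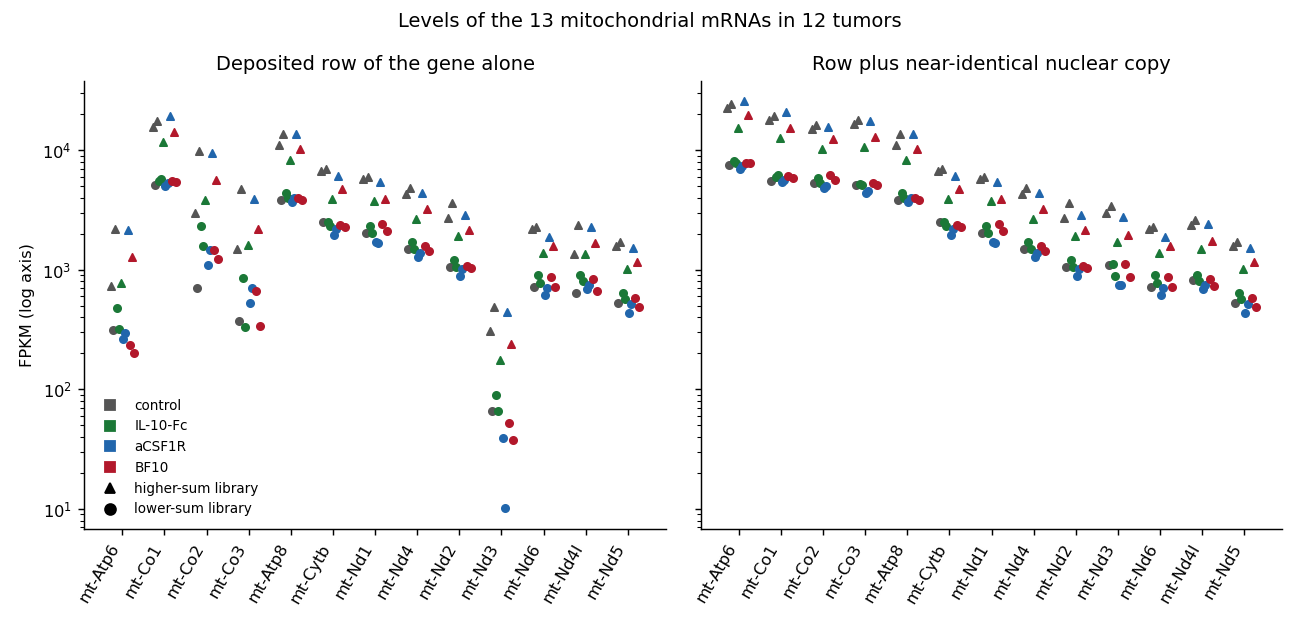
FPKM on a log axis of the 13 mitochondrial mRNAs in 12 tumors, for the deposited row alone (left) and with the near-identical nuclear copy added (right), each point 1 tumor, colored by group, with triangles for higher-sum libraries. On the left mt-Nd3 spreads from 10.1 to 483 FPKM, and on the right it spreads from 739 to 3376 FPKM, like its neighbours.

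With the copies added, the order of the mRNAs by level was led by complexes V and IV. mt-Atp6 was first at a median of 7945 FPKM over the 12 tumors, above mt-Co1 (6104 FPKM) in 12 of 12 libraries. mt-Co1 was above mt-Co2 (6009 FPKM) in 11 of 12 libraries, whereas mt-Co2 and mt-Co3 (5261 FPKM) changed places, mt-Co2 being higher in 7 of 12. mt-Atp8, the small partner of mt-Atp6 in the ATP synthase, followed at 4175 FPKM and was above mt-Cytb in 12 of 12 libraries. Alone, without copies, mt-Atp6 ranked 12 of 13 with a median of 396 FPKM.

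mt-Cytb, the cytochrome b of complex III, has no near-identical copy and gives a level free of that split. It stood at 6620.4, 2511 and 6987 FPKM in the control tumors, 2519.5, 2298 and 3873 in the IL-10-Fc tumors, 1958, 2184 and 6122 in the aCSF1R tumors and 2382, 4748 and 2252 in the BF10 tumors. The lower-sum tumors lay between 1958 and 2520 FPKM in every group and the higher-sum tumors between 3873 and 6987 FPKM.

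The complex I mRNAs were the lowest of the set. mt-Nd1 (median 2366 FPKM) came below mt-Cytb in 11 of 12 libraries and was followed by mt-Nd4 (1634 FPKM) and mt-Nd2 (1146 FPKM), each lower than the one before in 12 of 12 libraries. mt-Nd3 with its copy (1118 FPKM) was below mt-Nd2 in 9 of 12. mt-Nd6 had a slightly higher median (889 FPKM) than mt-Nd4l with its copy (864 FPKM), but was the higher of the pair in only 2 of 12 libraries. mt-Nd5 was last at 611 FPKM, below mt-Nd4l in 12 of 12. Summed over subunits on the TPM scale with the copies, complex IV mRNAs reached 23717 to 59222 TPM, complex V 17194 to 42519, complex I 10329 to 27070.3 and complex III 3184 to 7747.

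mt-Nd6 is the single protein-coding gene of the other strand, a membrane subunit of complex I. Its levels were 2172, 718 and 2274 FPKM in the control tumors, 908, 772 and 1379 in the IL-10-Fc tumors, 614, 706 and 1890.4 in the aCSF1R tumors and 869.6, 1563 and 711 in the BF10 tumors. Per 100 FPKM of the 12 heavy-strand mRNAs with their copies it made 1.60 to 2.28 FPKM. This ratio was 1.95 ± 0.0559 in the control, 2.07 ± 0.198 in the IL-10-Fc, 1.83 ± 0.215 in the aCSF1R and 1.96 ± 0.234 in the BF10 tumors (SD, n = 3 each), and the groups overlapped. It was 1.60 to 2.00 in the higher-sum and 1.87 to 2.28 in the lower-sum libraries. The 14 nt that mt-Nd6 shares with the end of mt-Nd5 on the opposite strand, and the reads beyond it, can be assigned only where counting uses strand. The libraries were stranded, but whether the counting used strand is not given in the sources used here.

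Within the pool of 13 mRNAs, the composition varied less than the total. With the copies, mt-Atp6 made 19.4% to 21.5% of the pool, mt-Co1 14.6% to 17.2%, mt-Co2 13.02% to 15.4% and mt-Co3 12.8% to 14.7% over the 12 tumors. The coefficient of variation of these shares was lowest for mt-Atp6, at 2.90%, and highest for mt-Nd3, at 11.9%. From the rows alone it ran from 3.74% (mt-Atp8) to 48.6% (mt-Nd3). mt-Co3 with its copy took 14.2% to 14.7% of the pool in the higher-sum and 12.8% to 13.5% in the lower-sum libraries, whereas mt-Co2 with its copy took 13.02% to 13.7% in the higher-sum and 13.96% to 15.4% in the lower-sum libraries. The shares of these 2 genes thus did not overlap between the sets and differed in opposite directions, while those of the other mRNAs with copies overlapped. From the rows alone both genes overlapped. There mt-Co2 took 5.25% to 12.9% in the higher-sum and 3.67% to 9.66% in the lower-sum libraries, and mt-Co3 2.62% to 6.22% and 1.58% to 3.55%.

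The rRNAs of the small and the large mitochondrial ribosomal subunit, mt-Rnr1 and mt-Rnr2, were far below the mRNAs in these libraries from polyadenylated RNA. mt-Rnr1 stood at 538, 128 and 369 FPKM in the control tumors, 154, 168 and 315 in the IL-10-Fc tumors, 156, 109 and 584 in the aCSF1R tumors and 230.3, 305 and 152 in the BF10 tumors. mt-Rnr2 ran from 98.1 FPKM in aCSF1R 6 to 494 FPKM in aCSF1R 8. Both were higher in the 5 higher-sum than in the 7 lower-sum libraries on the FPKM scale without overlap, while on the TPM scale mt-Rnr2 overlapped. Together they came to 0.582 to 1.18 FPKM per 100 FPKM of the mRNAs with copies, 0.639 to 0.907 in the higher-sum and 0.582 to 1.18 in the lower-sum libraries. Small nuclear-encoded RNAs that carry no tail, a list of 7 genes of which Rmrp and Terc were listed at 0, summed to 10.8 to 19.6 TPM in the higher-sum and 8.68 to 20.9 TPM in the lower-sum libraries.

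The tRNA rows rested on few reads. Their FPKM values fell on whole steps, and 147 of 147 values above 0 that corresponded to under 20 reads were whole reads within 0.1. At a length of 69 nt 1 read was worth 4.42 to 5.16 FPKM, since the effective length of such a row was only 6.51 to 6.54 nt, so tRNA levels are not comparable per length with those of the mRNAs, and reads are given instead. All 22 tRNA rows together came to 178 to 1447 reads in a library. Of these rows 8 were above 0 in 12 of 12 libraries and 2, mt-Tf and mt-Ts2, were listed at 0 in all of them. A count of 0 allows up to 3 reads per library for mt-Tf, while mt-Ts2, at 59 nt, is shorter than the 62 nt by which effective lengths fell below real lengths, so its 0 says nothing of the RNA. Intervals of this kind cover counting error only.

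The 4 tRNAs with the most reads carry serine, asparagine, glutamate and histidine. They are printed with the anticodon in capitals (mt-Ts1 chrM:6870-6938, mt-Tn chrM:5089-5159 and mt-Te chrM:14071-14139, all minus strand, and mt-Th chrM:11546-11612, plus strand), because 3 of them lie on the strand opposite to most mRNAs:

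mt-Ts1: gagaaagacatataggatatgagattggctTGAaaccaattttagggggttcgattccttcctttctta

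mt-Tn: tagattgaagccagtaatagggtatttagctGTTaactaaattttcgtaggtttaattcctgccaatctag

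mt-Te: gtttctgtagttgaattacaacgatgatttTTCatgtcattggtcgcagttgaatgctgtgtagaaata

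mt-Th: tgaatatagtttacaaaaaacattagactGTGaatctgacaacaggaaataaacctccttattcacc

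mt-Ts1, whose 3′ end overlaps the end of mt-Co1 by 3 nt on the opposite strand, had 380, 84 and 900 reads in the control tumors, 145, 152 and 367 in the IL-10-Fc tumors, 106, 100 and 721 in the aCSF1R tumors and 152, 502 and 109 in the BF10 tumors. Its highest and lowest counts were both in control tumors. mt-Tn had 35 to 234 reads, mt-Te 14 to 107 and mt-Th 6 to 56. Reads of mt-Ts1 and of the RNA that runs past the end of mt-Co1 cannot be told apart unless the counting used strand. The other 16 tRNA rows above 0 had at most 43 reads in a library. Of the 22 tRNA rows, 9 were higher in every higher-sum than in every lower-sum library on the FPKM scale and 6 on the TPM scale. Of the 35 members tested below, this held for 24 on the FPKM and 19 on the TPM scale. Over all 15504 genes tested it held for 13.5% on the FPKM scale, on which the sets were defined, and for 6.23% on the TPM scale.

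**Figure D3:**
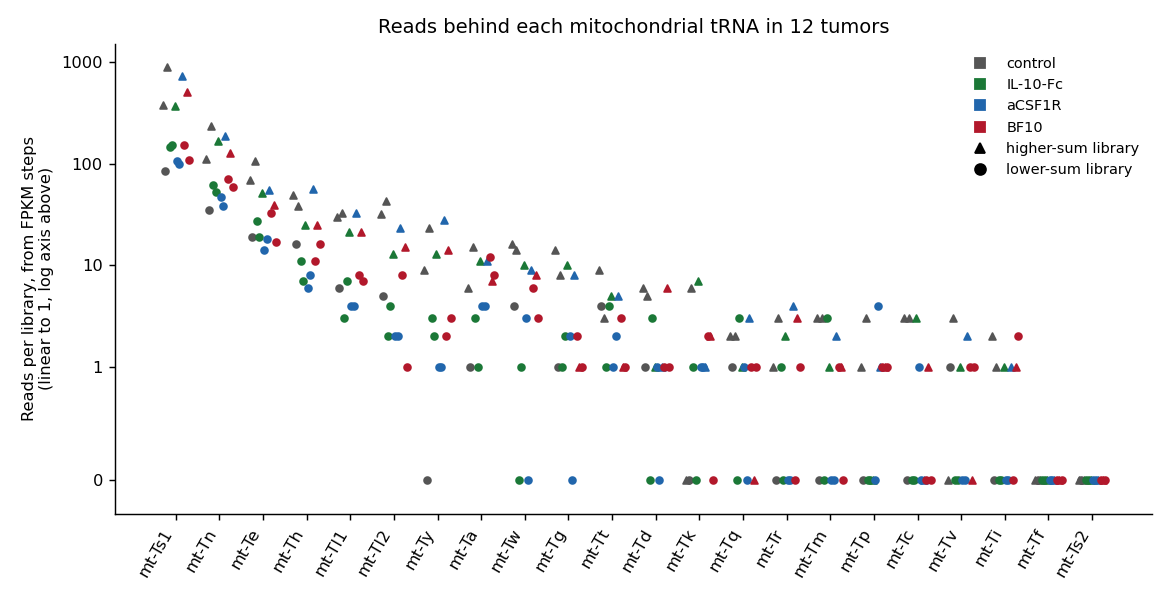
Reads per library (y axis, linear up to 1 and logarithmic above) for each of 22 mitochondrial tRNAs, each point 1 of 12 tumors, colored by group, with triangles for higher-sum libraries. mt-Ts1 has 84 to 900 reads, while mt-Tp, mt-Tv and mt-Ti have at most 4 reads in any tumor.

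The design asks whether each treatment shifted the tumors from control. Of the 37 members 35 passed the filter of at least 1 TPM in at least 3 libraries, the exceptions being mt-Tf and mt-Ts2, and tRNA rows could pass it with 1 or 2 reads. A gene was called at an adjusted p below 0.05 (limma, Benjamini-Hochberg over 15504 genes) with at least a 1.5-fold difference. In BF10 against control 0 of 35 members were called by limma, and 0 had an unadjusted p below 0.05. Over all genes 0% were called in that comparison. In IL-10-Fc against control 0 of 35 were called, with 0 at an unadjusted p below 0.05, where 0.00645% of all genes were called. In aCSF1R against control 0 of 35 were called, with 0 at an unadjusted p below 0.05, where 0.568% of all genes were called. The members' counts did not stand above these backgrounds. With this spread the standard error of a log2 difference was 0.352 to 1.07 for single mRNA rows and 0.548 to 2.08 for tRNA rows, so differences of about 1.5-fold were not detectable with 3 tumors a group. With sample quality weights, limma called 22 members (BF10), 29 (IL-10-Fc) and 27 (aCSF1R), each of them lower than in control, where 57.8%, 59.8% and 63.8% of all genes were called. The weight of control 5 was then 0.112 and that of IL-10-Fc 4 was 61.7. The estimate of these weights stopped before it converged, so the calls that rest on them are uncertain.

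The fitted differences of the mRNAs lay almost entirely on 1 side. The median log2 difference of the 13 mRNA rows from control was -0.50 (BF10), -0.45 (IL-10-Fc) and -0.47 (aCSF1R). Their signs were negative for 13, 12 and 12 of 13 rows, respectively, and the exception in both cases was mt-Co2, at 0.03 in each. Of all 15504 genes tested, 3491, 3149 and 4099 had a negative difference in these comparisons. As most of these mRNAs are cut from the same long RNAs, their signs are not separate observations. The median of all genes tested was 0.32, 0.35 and 0.24 in the same comparisons. With median-of-ratios scaling, which brings that median to 0.02, 0.00 and 0.03, the mRNA medians were -0.88, -0.89 and -0.71. These 3 comparisons share the 3 control tumors, of which 2 were higher-sum libraries.

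With the copies added, the mRNA differences became alike from gene to gene. They ran from -0.66 to -0.34 for BF10, from -0.69 to -0.41 for IL-10-Fc and from -0.77 to -0.31 for aCSF1R versus control, against -1.25 to -0.14, -0.85 to 0.03 and -1.72 to 0.03 from the rows alone. mt-Co2 was -0.34, -0.46 and -0.41 with its copy (SE 0.392), and mt-Nd3 was -0.66, -0.69 and -0.77 (SE 0.407). With copies 0 of 35 members were called in any of the 6 comparisons by limma. By complex, the fitted medians with copies were -0.51, -0.47 and -0.50 for complex I, -0.54, -0.57 and -0.53 for complex III, -0.41, -0.46 and -0.41 for complex IV and -0.42, -0.46 and -0.34 for complex V.

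**Figure D4:**
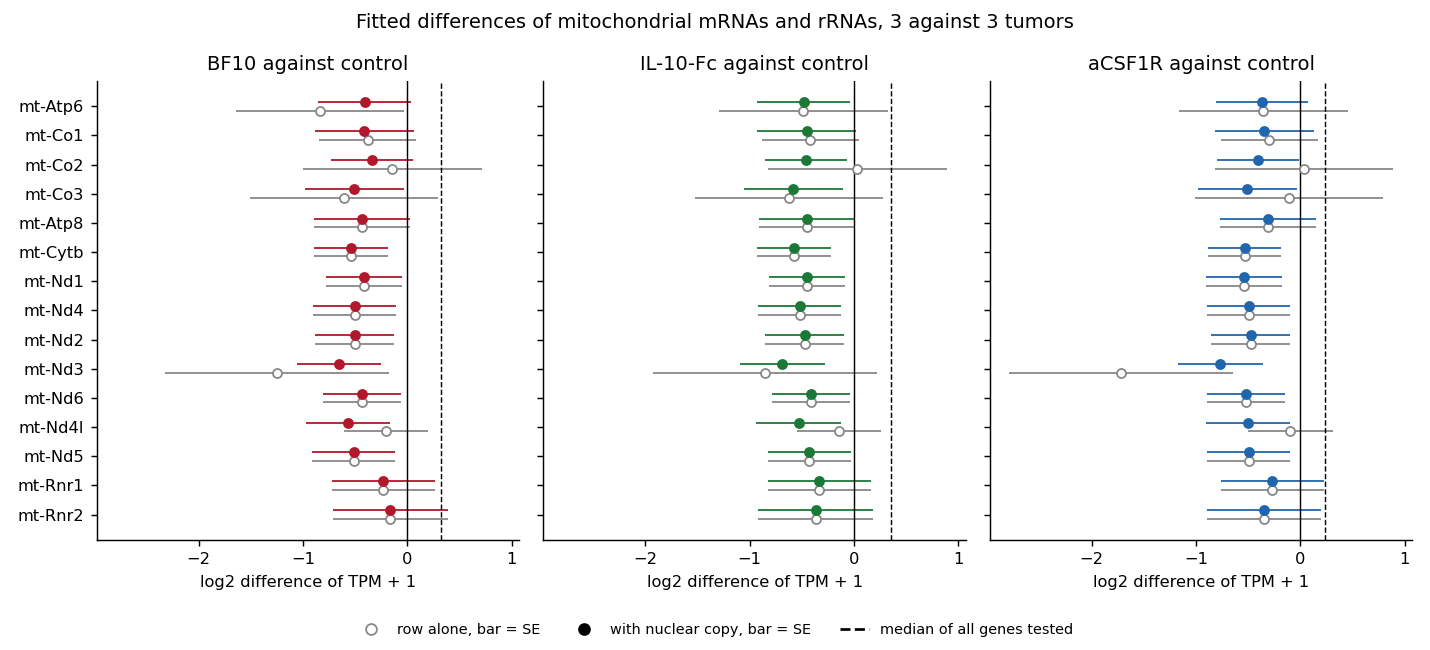
Fitted log2 differences of TPM + 1 (x axis) against control for the 13 mRNAs and 2 rRNAs in BF10, IL-10-Fc and aCSF1R tumors, 3 against 3, with the row alone (open) and with the nuclear copy added (filled), bars showing the SE and the dashed line the median of all genes tested. The filled points lie between -0.77 and -0.16 in all 3 panels, and no gene passed the test.

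mt-Nd6, with no copy to split its reads, had 2032 ± 774 TPM in the control, 1449 ± 398 in the BF10, 1459 ± 287 in the IL-10-Fc and 1403 ± 568 in the aCSF1R tumors (SD, n = 3 each). Its log2 difference from control was -0.44 in BF10 (SE 0.372, adjusted p = 0.788, limma), -0.41 in IL-10-Fc (adjusted p = 0.738) and -0.52 in aCSF1R (adjusted p = 0.893). The groups overlapped, and the control tumor of the lower-sum set, control 5, stood at 718 FPKM among the 614 to 908 FPKM of the treated tumors in that set. In a fit of the 7 lower-sum libraries the difference from control was 0.10 (BF10), 0.19 (IL-10-Fc) and -0.08 (aCSF1R). There the mRNA medians were 0.01 (BF10), 0.16 (IL-10-Fc) and -0.11 (aCSF1R). The single control tumor in that fit was control 5, which was assumed to vary like the other groups. With the library set as a term in the fit of all 12 libraries, the medians were -0.18, -0.12 and -0.21.

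The rRNAs had median log2 differences of -0.20 (BF10), -0.35 (IL-10-Fc) and -0.31 (aCSF1R) from control, and the 20 tRNAs tested had medians of -0.62, -0.76 and -0.98. mt-Tt, the threonine tRNA, had the smallest p of the members in BF10 against control, with a log2 difference of -1.53 (SE 0.707, adjusted p = 0.788, limma), from 9, 4 and 3 reads in the control and 3, 1 and 1 reads in the BF10 tumors. mt-Td, the aspartate tRNA, had the smallest p in aCSF1R against control, -2.35 (SE 1.11, adjusted p = 0.893, limma), from 6, 1 and 5 reads against 1, 0 and 1. These differences rest on a handful of reads. mt-Tp, the proline tRNA, had the smallest p in IL-10-Fc against control (adjusted p = 0.738, limma), with 0 reads in each IL-10-Fc tumor and 1, 0 and 3 in the control tumors, and no fold is given since both groups are within the 3 reads that a count of 0 allows.

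The TPM values of the groups did not overlap for 1 of 35 members in BF10 against control (mt-Tq, a tRNA with 0 to 3 reads, named for this count), for 0 in IL-10-Fc against control and for 1 in aCSF1R against control (mt-Td). Over all genes tested the groups did not overlap for 3.53%, 6.53% and 5.28% in these comparisons.

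Between the treated groups, the fitted differences of the mitochondrial mRNAs lay near 0. The median log2 difference of the 13 mRNA rows was -0.03 in BF10 against IL-10-Fc, -0.03 in BF10 against aCSF1R and -0.02 in IL-10-Fc against aCSF1R, where all genes tested had medians of -0.05, 0.06 and 0.11. With the copies each of the 13 mRNAs lay between -0.14 and 0.13 in all 3 comparisons. In BF10 against IL-10-Fc 0 of 35 members were called by limma, with 1 at an unadjusted p below 0.05, where 0% of all genes were called. In BF10 against aCSF1R 0 of 35 were called, with 0 at an unadjusted p below 0.05, where 0.735% of all genes were called. In IL-10-Fc against aCSF1R 0 of 35 were called, with 1 at an unadjusted p below 0.05, where 0.542% of all genes were called. A p that misses the threshold does not show that the groups were alike: for mt-Nd6 the log2 differences were -0.03, 0.08 and 0.11, with SE 0.372 and adjusted p = 1 (limma) each time.

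The member behind both unadjusted p values was mt-Tp, with 1 read in each BF10 tumor, 0 in each IL-10-Fc tumor and 0, 4 and 1 reads in the aCSF1R tumors (adjusted p = 1 in both, limma). mt-Td had the smallest p in BF10 against aCSF1R, a log2 difference of 1.75 (SE 1.11, adjusted p = 1, limma), from 1, 6 and 1 reads against 1, 0 and 1. The groups' TPM values did not overlap for 1 of 35 members in BF10 against IL-10-Fc (mt-Tp) and for 0 in BF10 or IL-10-Fc against aCSF1R, where the share of all genes tested was 2.13%, 5.91% and 7.49%.

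The nuclear genes that work with the mitochondrial genome gave no call either. Of 40 genes for transcribing, copying and processing mitochondrial DNA and its RNA, such as Polrmt, the mitochondrial RNA polymerase, and Tfam, which packs the DNA, 0 were called by limma in any of the 6 comparisons, and 0 had an unadjusted p below 0.05. Their median log2 differences from control were 0.16, 0.19 and 0.10 for BF10, IL-10-Fc and aCSF1R. Of 78 mitochondrial ribosomal protein genes 0 were called, with 0 at an unadjusted p below 0.05 and medians of 0.21, 0.23 and 0.07. Of 78 nuclear subunits of complexes I, III, IV and V that were tested 0 were called, with 0, 0 and 1 at an unadjusted p below 0.05 against control, at most 2 between treated groups, and medians of -0.10, -0.05 and -0.20 against control. Of the 4 subunits of complex II, the respiratory complex with no mitochondrially encoded part, 0 were called, with 0 at an unadjusted p below 0.05 and medians of 0.40, 0.42 and 0.02. Of 8 regulators of nuclear genes for mitochondria that were tested, such as Nrf1 and Esrra, 0 were called, with 0 at an unadjusted p below 0.05 and medians of 0.38, 0.50 and 0.41. The medians of the nuclear subunits of complexes I, III, IV and V were negative like those of the organelle mRNAs, and smaller in size. The signs of these nuclear subunits were mixed, with 44, 41 and 56 of 78 negative. A negative median was not particular to organelle mRNAs and nuclear subunits: the cytoplasmic ribosomal protein genes, with 0 of 90 called, had medians of -0.35, -0.33 and -0.25.

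Only some of these lists parted between the library sets. The summed TPM of the nuclear subunits of complexes I, III, IV and V was 23935 to 24519 in the higher-sum and 17615 to 19539 in the lower-sum libraries, and the 94 listed cytoplasmic ribosomal protein genes summed to 210943 to 254242 against 131078 to 156881 TPM. The genes for mitochondrial DNA expression and copying summed to 974 to 1102 TPM in the higher-sum and 1101 to 1226 TPM in the lower-sum set, and complex II subunits to 395 to 576 and 572 to 628 TPM, so both overlapped slightly. Within the former list, the 8 genes for cutting and tRNA ends were lower in the higher-sum set without overlap, at 226 to 261 against 285 to 316 TPM. The 8 genes for rRNA maturation were too, at 109 to 148 against 174.5 to 204 TPM. The 9 genes for tails and stability of the RNA stood the other way, at 375 to 397 against 331 to 358 TPM. The 9 listed regulators of nuclear genes for mitochondria were lower in the higher-sum set, at 135 to 195 against 241 to 314 TPM. The mitochondrial ribosomal proteins overlapped, at 4811 to 5590 TPM in the higher-sum and 4827 to 5135 TPM in the lower-sum libraries. A list of 10 genes used as a measure of mitochondrial mass, such as Cs (citrate synthase) and Vdac1 (a pore of the outer membrane), also stood lower in the higher-sum set, at 1035 to 1714 TPM against 2096 to 2358. Over all genes tested 48.8% were lower in every higher-sum than in every lower-sum library on the TPM scale, and 6.23% were higher. The higher mitochondrial mRNA of the higher-sum libraries came with higher nuclear subunits of complexes I, III, IV and V, but not of complex II. The cytoplasmic ribosomal protein genes were higher there too, so this was not particular to respiratory complexes. The FPKM sum that defined the sets includes all these nuclear genes and the nuclear copies. Their split between the sets is therefore not independent of how the sets were cut. The lower mass markers went the way of many other genes. The part of the library set in these levels was not tested.

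Markers of cell types were set beside the mitochondrial share. Tumor epithelium markers (Epcam, Krt8, Krt18, Krt14, Krt5 and Krt19, 6 of 6 measured, with Krt5 down to 0 TPM in 1 or more libraries) summed to 669 to 1465 TPM in the higher-sum and 1626 to 2265 TPM in the lower-sum libraries, without overlap. Of these genes Krt8 and Krt19 kept the sets apart singly, both lower in the higher-sum set, whereas Epcam, Krt18, Krt14 and Krt5 overlapped. Over all genes tested 48.8% were lower in this way, so the count of such epithelial genes did not stand above that share. Skeletal muscle markers, of a tissue rich in mitochondria, summed to 6.78 to 69.4 TPM in the higher-sum and 10.7 to 19.5 TPM in the lower-sum libraries, with 2 of 8 past the filter. IL-10-Fc 7 alone gave the 69.4 TPM, and the other 4 higher-sum libraries had 6.78 to 15.3 TPM. Adipose markers summed to 34.3 to 431 and 72.2 to 385 TPM, with Ucp1, which marks brown fat, at no more than 0.20 TPM. Macrophage markers, 8 of 8 measured, were 81.1 to 251 TPM in the aCSF1R tumors and 1460.0 to 2249 TPM in the other 9, and 6 of 8 were called lower in aCSF1R against control, while the mitochondrial share of the aCSF1R tumors spanned 3.14% to 8.66%. The fibroblast, neutrophil, T cell and erythrocyte marker sums overlapped between the sets. Fibroblast markers stood at 836 to 3840.0 TPM in the higher-sum and 1919 to 9057 TPM in the lower-sum libraries. The part of these cell types in the mitochondrial levels was not tested.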

How the data were processed

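Bulk RNA-seq of 12 tumors, 3 in each of 4 groups, was analysed from the table of FPKM values that the authors deposited for 55401 genes. Per the submitters' processing notes, STAR 2.7.5a, RSEM 1.3.3 and DESeq2 1.28.0 were used with mm10/GRCm38; their roles are not given in the sources used here. The authors' tables of their own comparisons were not used. FPKM values were divided by the library sum to give TPM, and the 15504 genes that reached 1 TPM in 3 or more libraries were tested on log2(TPM + 1), which understates changes of low genes, with limma 3.58.1 (eBayes with trend, R 4.3.3), 1 mean per group, 8 residual degrees of freedom, two-sided, Benjamini-Hochberg over all genes. The code was tested on simulated data. Copies were found with BLAST 2.17.0+ against GENCODE transcripts and added after multiplying by the ratio of effective lengths (length minus 62 nt). Depth came from whole-read steps of low FPKM values. log2 differences were named for mt-Nd6 and the member with the smallest p in each comparison; mt-Co2 and mt-Nd3 were added after their values were seen. The members and lists were chosen with earlier results of these data known.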

Additional observations from a re-analysis of the deposited data

How the results depend on the processing

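Of 168 counts of called members (6 comparisons under 28 alternatives), 160 were 0, among them 72 of 72 without 1 library (range 0 to 0 in each comparison). limma's sample quality weights called 22 (BF10), 29 (IL-10-Fc) and 27 (aCSF1R) members versus control, all lower, with 57.8%, 59.8% and 63.8% of all genes called. They called 1 in BF10 against IL-10-Fc (mt-Ta; 0.239% of all genes) and 8 in IL-10-Fc against aCSF1R (3 of them lower; 12.7% of all genes). Those weights ran from 0.074 (aCSF1R 8) to 61.7 (IL-10-Fc 4), control 5 had 0.112, and their estimate stopped before it converged. The lower-sum libraries alone gave 2 calls in aCSF1R against control (mt-Ty and mt-Tv; 0.219% of all genes) and 1 in BF10 against aCSF1R (mt-Tv; 1.00%), and the 6 libraries of BF10 and IL-10-Fc alone gave 1 (mt-Tp; 0.00645%). These tRNAs had at most 28 reads, and the cause was not tested.

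The log2 difference of mt-Nd6 changed sign in several fits. With the lower-sum libraries alone it was 0.10 (BF10), 0.19 (IL-10-Fc) and -0.08 (aCSF1R) versus control, and mt-Tp in IL-10-Fc against control was 0. With median-of-ratios scaling mt-Nd6 was 0.039 in BF10 against IL-10-Fc, -0.055 in BF10 against aCSF1R and -0.094 in IL-10-Fc against aCSF1R. Without 1 library it ran from -0.23 to 0.15 in BF10 against IL-10-Fc (0.12 without IL-10-Fc 7, 0.0011 without BF10 3, 0.15 without BF10 7). It ran from -0.12 to 0.40 in BF10 against aCSF1R (-0.12 without aCSF1R 4 or BF10 6, -0.02 without aCSF1R 6), and from -0.10 to 0.42 in IL-10-Fc against aCSF1R (-0.03 without IL-10-Fc 7, -0.10 without aCSF1R 4).

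Replicate numbers gave no steady pairing of the tumors: the deviations of 7 same-number pairs correlated at -0.66 to 0.42, 2 of them above 0.1. So few pairs cannot exclude that equal numbers mark tumors handled together. A replicate block (2 residual degrees of freedom) called 0 members in each comparison and moved the mRNA median in aCSF1R against control to -1.42. Without 1 library the mRNA medians against control ran from -0.85 to -0.23 (BF10), -0.82 to -0.19 (IL-10-Fc) and -0.86 to -0.20 (aCSF1R). Adding the nuclear copies was chosen after seeing the data. Few reads limit the tRNAs.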
